A study of Mus musculus with 6 samples.

Results

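The cathepsins described here are 10 lysosomal protease genes, taken by gene name (Ctsa, Ctsb, Ctsc, Ctsd, Ctsf, Ctsh, Ctsl, Ctso, Ctss and Ctsz) from the 20336 genes of a deposited count table. All 10 were found, and all 10 passed the filter on low counts. The table holds polyA RNA from large peritoneal macrophages, the main resident macrophages of the mouse peritoneal cavity, sorted by surface staining 30 min after E. coli was injected into the peritoneum. There were 3 libraries from PAC F/F mice, in which the gene of the proton-activated chloride channel PAC carries loxP sites (floxed control), and 3 from mice labelled Cxcr3-PAC-/- in the genotype field (PAC knockout). The design text names the driver of the deletion as Cx3cr1 instead, and names no driver for the control. All 6 libraries came from infected mice. Libraries of PBS-treated mice, which the design text mentions, were not analysed here, so no value below is a response to infection. Whether every library came from its own mouse is not stated; the p-values therefore describe library-to-library spread, part of which may be technical. In bulk RNA of this kind, fewer cells of a type and less RNA per cell cannot be told apart.

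Cathepsins are proteases that are made as inactive precursors, sorted to endosomes and lysosomes, and matured there in acid. In macrophages they digest engulfed proteins and bacteria in the phagosome after it fuses with lysosomes, and they trim proteins for antigen presentation. PAC is a chloride channel opened by acid and found on endosomal membranes, which is the setting in which the cathepsins are of interest here. By catalytic type the set has 8 cysteine proteases, 1 aspartic protease (Ctsd) and 1 serine carboxypeptidase (Ctsa).

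The libraries held 15981530 to 20648832 counts. The channel gene itself, listed as Tmem206, had 6.33, 12.2 and 8.16 CPM (read counts scaled to a common library size) in the controls and 4.27, 6.13 and 5.49 CPM in the knockouts. Its groups did not overlap, the log2 fold change was -0.75 (SE 0.31) and the edgeR adjusted p was 0.997. Transcript therefore remained in the libraries labelled knockout, and which exons were deleted is not stated. The macrophage markers Adgre1 (2147 ± 312 CPM in the controls and 2414 ± 277 CPM in the knockouts, SD, n = 3) and Gata6 (65.9 ± 3.97 and 79.4 ± 18.2 CPM, SD, n = 3) were present in every library. They belong to a list of 10 large peritoneal macrophage markers, of which 8 had positive and 2 negative log2 fold changes. On the higher side 2 of the 10 had an unadjusted edgeR p under 0.05. Of all tested genes 48.8% had positive values and 2.09% were higher at that p. Of 6 T and NK cell markers the summed level was 1.32 to 4.12 CPM in the controls and 2.97 to 4.27 CPM in the knockouts. For 7 neutrophil markers, of which 6 are in the table, it was 2.00 to 4.22 and 5.38 to 11.6 CPM. Summed over 8 B cell markers, it was 40.3 to 457 and 62.5 to 270 CPM. For 8 mast cell and eosinophil markers it was 57.6 to 147 and 140.0 to 250.2 CPM, nearly all of it Hdc, the histidine decarboxylase gene. Without Hdc the other 7 summed to 3.66, 5.33 and 7.48 CPM and to 34.1, 10.4 and 2.16 CPM, so that knockout replicate 3 was below every control. Markers of small macrophages and monocytes had negative log2 fold changes in 7 of 7 tested genes, 5 of them with an unadjusted edgeR p under 0.05. Of all tested genes 51.2% had negative values and 2.09% were lower at that p. The 7 include Fn1 at -0.02 (SE 0.14), which was very abundant in these sorted cells (means of 47871 CPM in the controls and 47126 CPM in the knockouts). Another of the 7, Ccr2, the chemokine receptor of monocytes, had 61.4, 122 and 54.4 CPM against 20.5, 17.1 and 34.6 CPM. The part of these other cells in the cathepsin values was not tested.

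No cathepsin differed between the genotypes by the edgeR quasi-likelihood test, and no gene did. Of 12786 genes tested, 0 passed at an adjusted p of 0.05 in the higher direction (0%) and 0 in the lower (0%); no adjusted p was below 0.997. Without adjustment, 2.09% of all genes were under 0.05 on the higher side and 2.09% on the lower side. Among the cathepsins 1 of 10, Ctsf, was on the higher side and 0 on the lower. With DESeq2, 9 genes were called higher and 12 lower, and with limma-voom none was; no cathepsin was called by either. In the authors' deposited table the adjusted p of the 10 genes ran from 0.9994 to 0.9997. Its log2 fold changes for these genes nearly equal those of DESeq2 here, so it is not a separate line of evidence.

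Of the 10 cathepsins, 9 had a positive log2 fold change, with a median of 0.12, where 48.8% of all tested genes did and the median of all genes was -0.0079. The knockout libraries lay wholly above the control libraries for 3 of the 10 (Ctsf, Ctsh and Ctsz), against 4.47% of all genes. None of the 10 lay wholly below, against 4.86% of all genes. The 10 genes share the same 6 libraries and were chosen with earlier results known, so these counts are a description and not a test of the set. Without knockout replicate 1 or knockout replicate 2 the number of positive values was 7, and the median was 0.067 without knockout replicate 1 and 0.080 without control replicate 1.

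**Figure D1:**
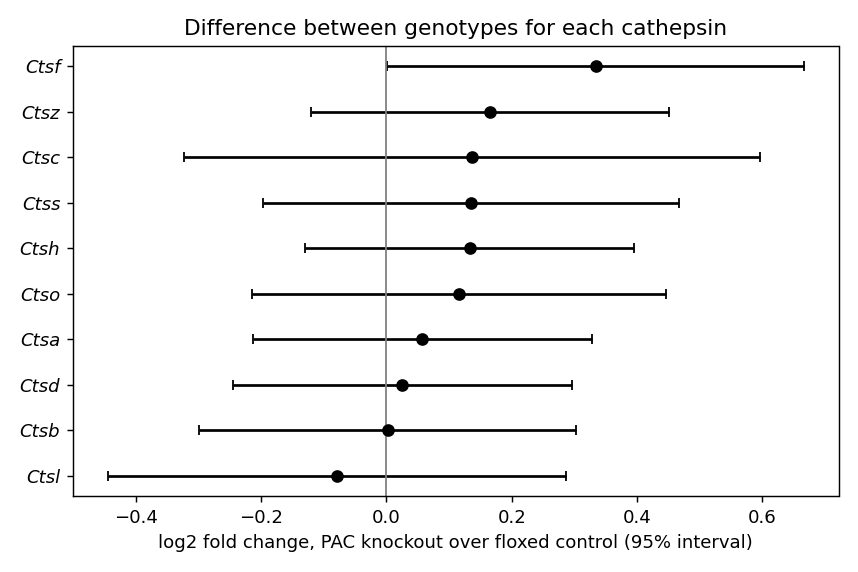
Log2 fold change of each cathepsin, PAC knockout over floxed control (x axis), for the 10 genes (y axis), with points for the estimate and bars for its 95% interval. In this edgeR fit all intervals include 0 except that of Ctsf, which starts at 0.0017; by limma-voom that interval starts at -0.0069.

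The intervals limit how large a genotype difference these libraries allow. Across the 10 genes the 95% intervals reached from 0.735-fold to 1.59-fold, and 8 of them lay within 1.5-fold either way. The exceptions were Ctsf and Ctsc. From estimate to bound, the median distance was 0.32 log2 units for the cathepsins and 0.51 for all tested genes, most of which are less abundant than any of the 10.

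The cathepsins are among the abundant messages of these cells. Together they took 0.641%, 0.727% and 0.688% of all counts in control replicates 1, 2 and 3 and 0.727%, 0.752% and 0.659% in knockout replicates 1, 2 and 3. The groups overlapped: the lowest library was a control and the second lowest knockout replicate 3. Of the scaled totals that CPM uses, the shares were 0.681%, 0.686% and 0.682% in the controls and 0.726%, 0.760% and 0.661% in the knockouts. On that scale knockout replicate 3 was the lowest library, and knockout replicates 1 and 2 lay above every control. Ctsb, Ctss and Ctsd made up 63.8% to 67.4% of the cathepsin counts in each library. The 8 cysteine proteases held 73.4% to 76.6%, Ctsd 15.2% to 17.4% and Ctsa at most 9.25%. By CPM, 7 of the 10 were among the 500 most abundant of the tested genes.

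The genes were ranked per kilobase of the deposited gene length, so the order and the folds depend on the annotation. For Ctsl and Ctss that length equals all annotated exon bases (6489 and 1358). The length of the transcripts expressed was not measured. By CPM alone the mean of Ctsb was above that of Ctss (2149 against 1290 in the controls, 2152.5 against 1416 in the knockouts). Per kilobase, Ctss was highest at 996 ± 124 CPM per kb (mean ± SD over 6 libraries). Next came Ctsd at 475 ± 23.0, Ctsb at 355 ± 29.3 and Ctsz at 252 ± 23.9 CPM per kb. Ctsc followed at 137 ± 30.8, Ctsa at 127 ± 7.23, Ctsh at 72.8 ± 4.72 and Ctsl at 28.9 ± 4.60 CPM per kb. Ctsf at 13.9 ± 2.11 and Ctso at 13.6 ± 1.79 CPM per kb were lowest, 73.2-fold below Ctss in the case of Ctso. Of the 9 neighbouring pairs in this order, 2 overlapped over the libraries (Ctsc with Ctsa, and Ctsf with Ctso), and their order is not resolved. The other 7 pairs did not overlap in any library. The authors' deposited FPKM give the same order, but they were made from gene length and counts too and are no separate check.

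**Figure D2:**
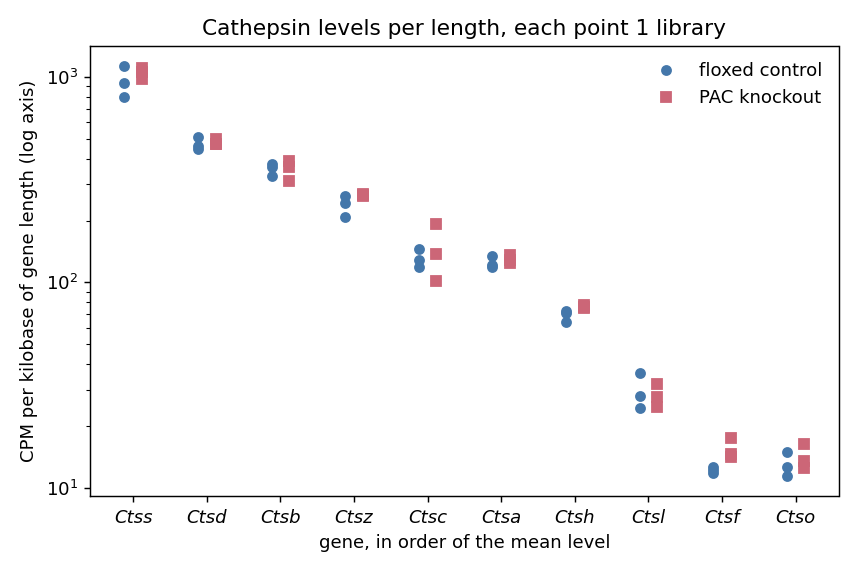
Level of each cathepsin in CPM per kilobase of gene length (y axis, log scale), genes in order of the mean (x axis), each point 1 library, circles floxed control and squares PAC knockout. The genes span 73.2-fold, from Ctss at 996 to Ctso at 13.6 CPM per kb, while the 2 genotypes lie close together within each gene.

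Among the cysteine endopeptidases, Ctss (chromosome 3, 95526786 to 95556403, plus strand, GRCm38 throughout) encodes cathepsin S, which stays active near neutral pH and cleaves the invariant chain of MHC class II. It stood at 1266, 1077 and 1526 CPM in control replicates 1, 2 and 3 and at 1499.8, 1318 and 1431 CPM in knockout replicates 1, 2 and 3. The groups overlapped, since the highest and the lowest library were both controls. The log2 fold change was 0.14 (SE 0.15), with a 95% interval of -0.20 to 0.47, and it ran from 0.023 without control replicate 2 to 0.28 without control replicate 3. Cd74, the invariant chain itself, had 2659, 1471 and 2338 CPM in the controls and 3419, 1284 and 1740 CPM in the knockouts. In each genotype the library lowest in Ctss was also lowest in Cd74. B cells and dendritic cells also express cathepsin S. The summed B cell markers stood at 67.5, 457 and 40.3 CPM in the controls and at 269.6, 62.5 and 116 CPM in the knockouts. Their order was the reverse of that of Ctss in the controls and the same as that of Ctss in the knockouts. The summed dendritic cell markers stood at 18.4, 13.3 and 6.79 CPM and at 12.2, 13.8 and 8.48 CPM, lowest in control replicate 3, the library highest in Ctss. The part of either cell type in the Ctss level was not tested.

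Ctsb (chromosome 14, 63122462 to 63145923, plus strand), cathepsin B, cuts proteins internally and also removes dipeptides from the carboxyl end. It held 2193, 2269 and 1985 CPM in the controls and 2202, 2363 and 1893 CPM in the knockouts. The highest and the lowest library were both knockouts, and the log2 fold change was 0.0025 (95% interval -0.30 to 0.30). Its sign depended on the libraries, at -0.070 without knockout replicate 2 and 0.089 without knockout replicate 3.

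Ctsl (chromosome 13, 64359337 to 64370890, minus strand), cathepsin L, a strong lysosomal endopeptidase, was the only cathepsin with a negative log2 fold change, -0.08 (SE 0.17). Its libraries stood at 236, 183 and 158 CPM in the controls and 179, 207 and 161 CPM in the knockouts. Control replicate 1 was the highest, and without it the log2 fold change was 0.10, and without knockout replicate 3 it was 0.0050.

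Cathepsin F, from Ctsf (chromosome 19, 4855129 to 4860912, plus strand), can cleave the invariant chain in mouse macrophages in place of cathepsin S. It had the largest difference of the set: 23.4, 25.0 and 24.2 CPM in the controls and 27.9, 29.0 and 34.6 CPM in the knockouts, from 432 to 625 counts per library. Every knockout library was above every control library. The mean was 24.2 ± 0.838 CPM in the controls and 30.5 ± 3.62 CPM in the knockouts (SD, n = 3), or 126% of the control. Its log2 fold change was 0.33 (SE 0.15, 95% interval 0.0017 to 0.67), with an unadjusted edgeR p of 0.049 and an adjusted p of 0.997. An exact two-sided permutation of the libraries gave p = 0.10, below which 3 libraries against 3 cannot go. Without knockout replicate 3 the log2 fold change was 0.23, with an unadjusted edgeR p of 0.173. By limma-voom the 95% interval was -0.0069 to 0.67, with an unadjusted p of 0.0541, and the unadjusted p in the authors' deposited table was 0.0975.

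Ctso (chromosome 3, 81932601 to 81956725, plus strand), a little-studied cysteine cathepsin, stood at 58.7, 65.1 and 76.8 CPM in the controls and 83.8, 64.4 and 69.2 CPM in the knockouts. The groups overlapped, and the log2 fold change of 0.12 (SE 0.15) was -0.0011 without knockout replicate 1.

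**Figure D3:**
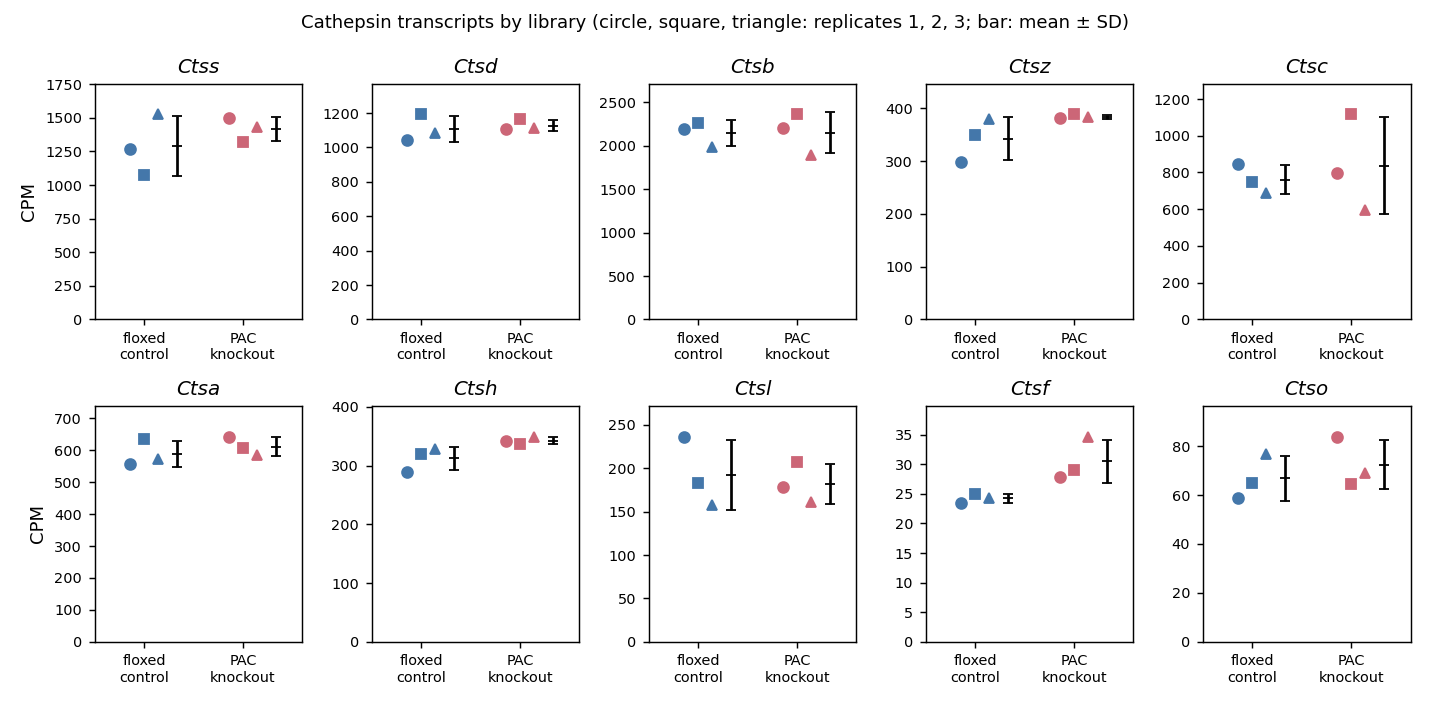
CPM of each of the 10 cathepsins (y axis, from 0) in the 3 floxed control and 3 PAC knockout libraries (x axis), each symbol 1 replicate, with bars for mean ± SD. The groups are apart for Ctsf, Ctsh and Ctsz and overlap for the other 7 genes.

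The cysteine exopeptidases trim proteins from their ends. Ctsz (chromosome 2, 174427493 to 174439039, minus strand), the carboxypeptidase cathepsin Z, had 299, 349.8 and 379 CPM in the controls and 381, 388 and 383 CPM in the knockouts. The knockout libraries lay close together and just above the highest control. The log2 fold change was 0.16 (SE 0.13), the edgeR adjusted p 0.997 and the exact permutation p 0.10. Ctsh (chromosome 9, 90054152 to 90076089, plus strand), the aminopeptidase cathepsin H, showed the same arrangement. Its libraries held 289.9, 319 and 328 CPM in the controls and 342, 337 and 349 CPM in the knockouts, a log2 fold change of 0.13 (SE 0.12; edgeR adjusted p 0.997; exact permutation p 0.10). In both genes control replicate 1 was the lowest library, and without it the log2 fold changes were 0.08 for Ctsz and 0.08 for Ctsh.

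Ctsc (chromosome 7, 88278085 to 88310888, plus strand) encodes cathepsin C, or dipeptidyl peptidase I, which activates the granule serine proteases of neutrophils, mast cells and cytotoxic lymphocytes. It varied more over the libraries than any other cathepsin, over 1.88-fold: 844, 748 and 689 CPM in the controls and 799.7, 1116 and 593 CPM in the knockouts. Knockout replicates 2 and 3 were the highest and the lowest of all 6. The log2 fold change was 0.14 (SE 0.21), and it was -0.13 without knockout replicate 2 and 0.33 without knockout replicate 3. The summed neutrophil markers stood at 4.22, 3.01 and 2.00 CPM in the controls and at 8.78, 11.6 and 5.38 CPM in the knockouts. Within each genotype their order was that of Ctsc, but knockout replicate 3, the library lowest in Ctsc, was above every control in these markers. Mast cell and eosinophil markers without Hdc summed to 3.66, 5.33 and 7.48 CPM in the controls and to 34.1, 10.4 and 2.16 CPM in the knockouts. T and NK cell markers summed to 2.63, 4.12 and 1.32 CPM and to 4.27, 2.97 and 3.77 CPM. Neither of these lists had the order of Ctsc in either genotype. The part of any of these cells in the Ctsc level was not tested.

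The cathepsins of other catalytic types had the narrowest ranges over the 6 libraries. Ctsd (chromosome 7, 142375911 to 142388038, minus strand), the aspartic endopeptidase cathepsin D, held 1044, 1193 and 1086 CPM in the controls and 1105, 1167 and 1111 CPM in the knockouts. Its log2 fold change was 0.03 (SE 0.12), and all knockout values lay inside the control range. Without control replicate 1 it was -0.013. Ctsa (chromosome 2, 164832873 to 164841032, plus strand), the carboxypeptidase that holds beta-galactosidase and neuraminidase in a stable complex, had 558, 635 and 572 CPM in the controls and 643, 608 and 586 CPM in the knockouts. Its groups overlapped, with a log2 fold change of 0.06 (SE 0.12), which ran from 0.022 without knockout replicate 1 to 0.12 without control replicate 2.

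Over all 6 libraries the log2 range was 0.19 for Ctsd and 0.20 for Ctsa and reached 0.58 for Ctsl and 0.91 for Ctsc. By within-group SD the steadiest was Ctsh (0.069 log2 units), followed by Ctsd (0.076) and Ctsa (0.084). The median within-group SD was 0.13 log2 units for the cathepsins and 0.17 for the 4951 genes that are at least as abundant as Ctsf, the lowest of them. A pair of arrangements recurs among the members when each is set against its own mean. Ctsb, Ctsc and Ctsl were each higher in knockout replicate 2 (0.14, 0.51 and 0.16 log2 units above their means) and lower in knockout replicate 3 (-0.18, -0.40 and -0.21). They were also below their means in control replicate 3 (-0.11, -0.18 and -0.23). Ctss and Ctso, in contrast, were highest in control replicate 3 (0.18 and 0.15 above) and knockout replicate 1 (0.16 and 0.28 above). These arrangements cut across genotype and were chosen after the values were seen.

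**Figure D4:**
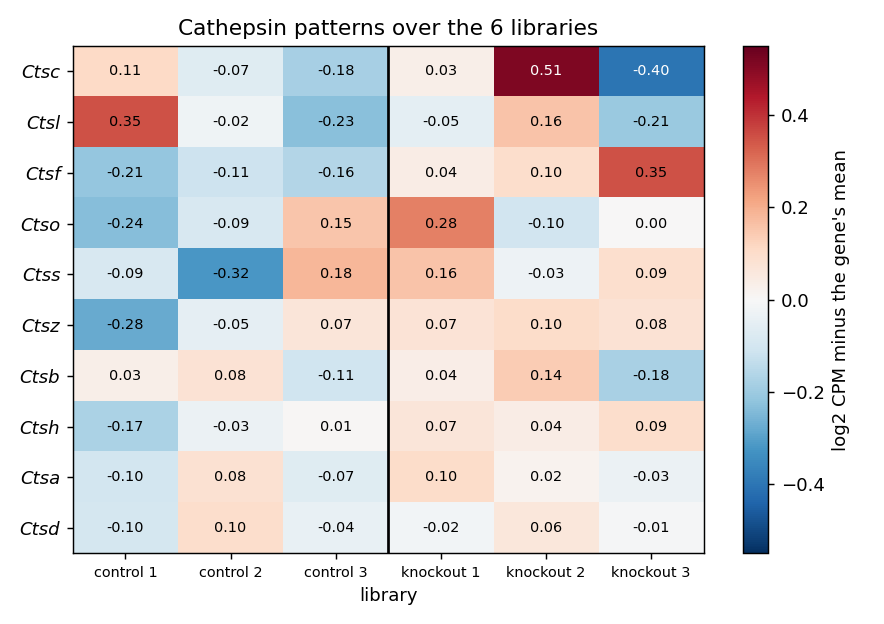
Log2 CPM of each cathepsin minus its mean over the 6 libraries (colour and number), genes in order of range (y axis) and libraries on the x axis, controls left of the line and knockouts right. Ctsc spans 0.91 log2 units and Ctsd 0.19, and the Ctsf row changes sign between the genotypes.

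Set against 8001 other genes whose mean log2 CPM was 3 or more and that code for protein, the 3 closest to Ctsc in their pattern over the 6 libraries were Ptprm, Eml1 and Kri1. Likeness was the root mean square difference of log2 CPM, each gene set to its own mean: 0.061 for Ptprm, 0.085 for Eml1 and 0.086 for Kri1. Ptprm, a receptor tyrosine phosphatase gene, had 63.4, 63.4 and 51.4 CPM in the controls and 60.7, 86.1 and 46.2 CPM in the knockouts.

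Promoter sequences were compared because many lysosomal genes are known targets of TFEB and TFE3, which bind the letters CACGTG in the element called CLEAR. The RefSeq windows of 250 bases before to 50 after each start (GRCm38.p6) gave 9 windows of 8 cathepsins (Ctsa, Ctsc, Ctsd, Ctsf, Ctsl, Ctso, Ctss and Ctsz). The letters CACGTG, which read the same on both strands, stood in windows of 4 of these 8 genes (Ctsa, Ctsd, Ctsf and Ctsl), and in 8.09% of all 27025 genes of the table and 7.15% of all windows. The window of Ctsd holds 2 copies, 245 and 98 bases before the start, and there are 2 in the second window of Ctsa, 12 bases before and 5 after its start. Ctsf has 1 copy 79 bases before its start, and Ctsl 1 copy 236 bases before. Of 4 genes of this factor family that were tested, 1 had a positive and 3 a negative log2 fold change, and 0 passed. The values were -0.17 for Tfeb (SE 0.16), -0.10 for Tfe3 (SE 0.13), -0.18 for Mitf (SE 0.16) and 0.07 for Tfec (SE 0.24). Shown are the windows of the member with the narrowest range and of the one with the largest difference, 5′ to 3′ on the strand of the gene, with CACGTG in capitals.
Ctsd, minus strand, chr7:142387778-142388077: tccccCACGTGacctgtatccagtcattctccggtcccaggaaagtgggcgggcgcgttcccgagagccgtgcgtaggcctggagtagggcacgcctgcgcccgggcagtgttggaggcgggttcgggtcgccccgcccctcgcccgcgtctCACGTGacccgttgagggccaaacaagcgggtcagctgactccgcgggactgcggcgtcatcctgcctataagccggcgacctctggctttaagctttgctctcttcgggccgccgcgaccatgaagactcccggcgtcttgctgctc
Ctsf, plus strand, chr19:4854915-4855214: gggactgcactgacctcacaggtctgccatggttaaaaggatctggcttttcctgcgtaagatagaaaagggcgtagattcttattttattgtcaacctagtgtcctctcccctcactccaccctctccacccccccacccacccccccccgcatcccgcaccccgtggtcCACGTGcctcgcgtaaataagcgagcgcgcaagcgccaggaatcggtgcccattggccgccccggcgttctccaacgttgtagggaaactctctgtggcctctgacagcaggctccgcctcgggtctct

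The windows of Ctss and Ctso were read for a second motif, chosen after the sequences were seen: GAAA, any 2 bases, then GAAA, the core bound by interferon regulatory factors. On either strand it stood in 2 of the 8 cathepsins, these 2, and in 3.99% of all genes of the table and 3.44% of all windows. Because the motif was chosen after these windows were seen, the count in the cathepsins cannot be compared with those shares. It begins 21 bases before the start of Ctss, and 15 and 21 bases after the start of Ctso in 2 overlapping copies. Neither window holds CACGTG. A match is a description of the letters and not a site. Both windows are given 5′ to 3′ with the motif in capitals, since these are the 2 genes that were high together in control replicate 3 and knockout replicate 1. That pair too was chosen after the values were seen, and a link between the motif and the levels was not tested.
Ctss, plus strand, chr3:95526536-95526835: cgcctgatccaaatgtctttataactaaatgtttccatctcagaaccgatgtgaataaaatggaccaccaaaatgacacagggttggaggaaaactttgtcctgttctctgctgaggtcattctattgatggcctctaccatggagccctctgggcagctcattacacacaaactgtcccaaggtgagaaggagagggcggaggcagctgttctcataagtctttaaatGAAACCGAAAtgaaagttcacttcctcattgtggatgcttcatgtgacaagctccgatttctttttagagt
Ctso, plus strand, chr3:81932351-81932650: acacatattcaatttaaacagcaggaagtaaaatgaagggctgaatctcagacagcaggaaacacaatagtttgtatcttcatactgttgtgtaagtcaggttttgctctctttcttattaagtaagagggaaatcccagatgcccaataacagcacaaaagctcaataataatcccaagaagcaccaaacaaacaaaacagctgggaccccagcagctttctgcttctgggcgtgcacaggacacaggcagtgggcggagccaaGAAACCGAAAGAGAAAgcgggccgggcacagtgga

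Other cathepsin genes had low counts. Of 13 further cathepsin genes listed, 4 are in the table and 1, Ctse, passed the filter. Ctse, an aspartic protease of the endosome, had 28, 67 and 38 counts in the controls and 149, 41 and 31 in the knockout, or at most 8.84 CPM, with the highest level in knockout replicate 1. Ctsk, the osteoclast collagenase, had 0 counts in each control library and 0, 9 and 8 in the knockout, although it lies next to Ctss, with 17423 bases and no gene of the table between them. A count of 0 allows up to 0.154 to 0.190 CPM (3 counts) and covers counting error only. Ctsw, of cytotoxic lymphocytes, reached 12 counts, and Ctsg, of neutrophil granules, 2.

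Inhibitors of the cysteine cathepsins were led by Cst3, the secreted cystatin C. It stood at 1265, 1169 and 1479 CPM in the controls and 1280.3, 1274 and 1363 CPM in the knockouts, a log2 fold change of 0.0014 (SE 0.13). Cstb, the cytosolic stefin B, had 19.8, 19.7 and 20.7 CPM in the controls and 16.4, 22.4 and 27.4 CPM in the knockouts, with a log2 fold change of 0.14 (SE 0.20). Cst7, cystatin F, had at most 8 counts in a library. Serpina3g, an intracellular serpin that inhibits cathepsin B, had the smallest p of the list, with a log2 fold change of 1.32 (SE 0.75, edgeR adjusted p 0.997). All 5 tested inhibitors of 11 listed had positive values (median 0.25), where 48.8% of all tested genes did, and 0 passed the test. The median was the value of Ctla2b (SE 0.49), with means of 2.07 CPM in the controls and 2.46 CPM in the knockouts. Ctla2a (1.26 and 1.61 CPM) and Serpina3g (2.18 and 5.46 CPM) were low as well. A general rise of the inhibitors is therefore not shown.

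Genes that sort and activate the precursors were divided. Of 14 tested, 7 had positive and 7 negative log2 fold changes (median -0.00053), and 0 passed the test. Sort1, encoding sortilin, a receptor that carries lysosomal proteins from the Golgi, had 264, 229.7 and 286 CPM in the controls and 171, 193 and 219.6 CPM in the knockouts. Every knockout library was below every control library. Its log2 fold change was -0.42 (SE 0.14), with an unadjusted edgeR p of 0.013 and an adjusted p of 0.997. Ap1g1, an adaptor subunit, had -0.15 (SE 0.12) and its groups also did not overlap. Lgmn, the legumain that cleaves cathepsin precursors, stood at 0.12 (SE 0.15). Psap and Grn, the genes of prosaposin and progranulin, which travel with cathepsins, stood at -0.07 (SE 0.12) and 0.14 (SE 0.13).

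Partners and substrates of the cathepsins had 9 positive and 4 negative values (13 tested, median 0.09), and 0 passed. Glb1, the beta-galactosidase held by cathepsin A, had 236, 239 and 253 CPM in the controls and 314, 297 and 252.9 CPM in the knockouts, a log2 fold change of 0.25 (SE 0.13) with an edgeR adjusted p of 0.997. Its lowest knockout library lay just above the highest control. Neu1, the neuraminidase of the same complex, stood at 0.09 (SE 0.14). Other lysosomal hydrolases had 22 positive and 10 negative values (32 tested, median 0.07), and 0 passed. The smallest unadjusted p-values were those of Galns (0.43, SE 0.14), Ggh (0.68, SE 0.23) and Naglu (0.37, SE 0.15), enzymes that act on keratan sulfate, folate chains and heparan sulfate; edgeR adjusted p was 0.997 for each. The cathepsin median of 0.12 thus stood beside medians of 0.07 for the hydrolases and -0.00053 for the sorting genes, and the differences between these lists were not tested. Of all tested genes, 48.8% had positive values, and their median was -0.0079.

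Parts of some members share exons with other genes of the GENCODE M21 annotation, and no strand setting of the counting is given. Ctsl shares 26.9% of its exon bases with the antisense gene Gm47123, and Ctsd 34.4% with the same-strand gene Gm49369, neither of which is in the deposited table. For Ctsb the share was 12.8% with Fdft1 and for Ctsa 10.5% with Pltp, both on the opposite strand. How reads from these stretches were assigned is not stated.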

How the data were processed

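PolyA RNA of sorted peritoneal macrophages was sequenced in 6 libraries, grouped by the labels. Per the submitters' processing notes, reads were aligned with HISAT2 2.0.5 to mm10 (GRCm38), and featureCounts 1.5.0-p3 gave the count of each gene; annotation release, strand setting and treatment of ambiguous reads: not given in the sources used here. The deposited file holds raw counts per gene, which were tested. It also holds FPKM, which the authors made from gene length and counts per the series' design text, and the authors' own comparison (log2 fold change, p-value, adjusted p-value), for which that text names only clusterProfiler. For the cathepsins the authors' log2 fold changes nearly equal those of the DESeq2 alternative run here, such as 0.331 in both for Ctsf. The other deposited column used is gene length, unit bases.

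Genes were kept by edgeR's default filter (12786 of 20336), scaled by TMM and tested with the robust quasi-likelihood test of edgeR 4.0.16 (R 4.3.3). Genotype was the single term, and p-values were adjusted over all tested genes by Benjamini-Hochberg, with a threshold of 0.05. SEs and 95% intervals of log2 fold changes were derived from the F statistic and its degrees of freedom. CPM uses TMM-scaled totals of the tested genes; patterns use log2 CPM with a prior count of 2. The fit was tested on simulated data. Alternatives were other scalings, no or a stricter filter (50 counts in 3 libraries), DESeq2 1.42.0, limma 3.58.1's voom, a replicate block and each library left out. The members, gene lists and rules for named genes were chosen with earlier results of these data known. The rule named all members, fixed regulators and the genes of smallest p of each list (at most 3), of which some are not printed; Ccr2, Adgre1, Gata6, Gm26522, the second promoter motif and the genes sharing exons were chosen after their values were seen. Library pairs differed beyond sampling noise (chi-square per gene at least 25.0). Sequences are from the RefSeq promoter table, build GRCm38.p6, and 8 of 10 members matched. No column belonged to another sample (0).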

Additional observations from a re-analysis of the deposited data

How the results depend on the processing

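No cathepsin passed the threshold under any of the 13 alternatives run, and the sign was kept in 118 of 130 member values. The sign of 5 members changed under at least 1 alternative. The reversed value was about as large as the main one for Ctsc, and reached a larger size than the main one for Ctsb and Ctsl. For Ctsb the log2 fold change was -0.0080 with library totals only, -0.0013 with the replicate block, -0.00048 with DESeq2 and -0.0011 with limma-voom. With 1 library left out, it ran from -0.070 to 0.089 for Ctsb, from -0.13 to 0.33 for Ctsc, from -0.013 to 0.084 for Ctsd, from -0.20 to 0.10 for Ctsl and from -0.0011 to 0.23 for Ctso; the cause was not tested. Ctsf ran from 0.23 to 0.40. The count of members with higher values ran from 7 to 10. The median of the members was 0.10 with the replicate block, which changed no call; same-numbered libraries did not deviate together (correlations -0.05, -0.06 and 0.08), and the labels do not pair them. Over all genes, 0 were called under most settings, but 20 higher and 18 lower with no filter on low counts and 9 higher and 12 lower with DESeq2. With 1 library left out the counts ran from 0 to 8 higher and from 0 to 10 lower. The lowest adjusted p of a cathepsin was then 0.711. Every cathepsin had at least 432 counts in each library.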

Other observations

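The noncoding gene Gm26522 overlaps the Ctsc locus on the opposite strand and shares 0 exon bases with it. It had 307, 154 and 42 counts in control replicates 1, 2 and 3 and 79, 289 and 27 counts in knockout replicates 1, 2 and 3. Within each genotype the order of these counts was that of the CPM of Ctsc. It was chosen after its values were seen, and the strand setting that would part its reads from unspliced reads of Ctsc is not stated.

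Pltp, the phospholipid transfer protein gene whose exons share 495 bases with those of Ctsa on the opposite strand, had 28002, 22078 and 17214 counts in the control and 14187, 14109 and 15906 in the knockout. Ctsa had 10843, 10946 and 10860 counts in the control and 10837, 9610 and 10576 in the knockout. These counts of both genes are not scaled to library size, and the library totals ran from 15981530 to 20648832. They therefore do not give the size of a genotype difference in Pltp. No gene passed the edgeR test, where the smallest adjusted p was 0.997. In CPM the groups of Ctsa overlapped, at 558, 635 and 572 in the control and 643, 608 and 586 in the knockout. Its log2 fold change was 0.06 (SE 0.12). Pltp too was chosen after its values were seen.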
